A study of Mus musculus with 4 samples.

Results

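The CXC chemokines that draw neutrophils into tissue, together with their 2 receptors, were followed across the cell classes of a mouse tumour. The 9 genes are the ligands Cxcl1, Cxcl2, Cxcl3, Cxcl5, Ppbp, Pf4 and Cxcl12 and the receptors Cxcr2 and Cxcr4. They were found by symbol, and all 9 are among the 32285 genes of the tables. Tumours were raised under the skin of B6C3F1 mice aged 6 to 8 weeks from OV2944-HM1, a mouse ovarian cancer cell line. The IL-27 group received recombinant mouse IL-27 into the tumour at 100 ng per mouse, from the day of implantation and every other day until the end. The control group received vehicle on the same schedule. Both groups carried the same line in the same strain. Cells that bound CD45 beads were taken from the digested tumours on day 14 and read with a droplet 5' single-cell kit that counts molecules by unique molecular identifiers (UMIs). All results come from 1 line in 1 host strain, and the number of mice behind a matrix is not given in the sources used here.

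Neutrophils leave the marrow and enter tissue along gradients of CXC chemokines. The ligands that carry the residues Glu-Leu-Arg (ELR) just before the paired cysteines bind CXCR2 and attract neutrophils. In mouse these are the products of Cxcl1 (KC), Cxcl2 (MIP-2), Cxcl3, Cxcl5 (LIX) and Ppbp, the precursor of CXCL7. PF4 (CXCL4) lies in the same gene cluster, lacks the ELR residues and is stored in platelet granules. CXCL12 holds neutrophils in the marrow through CXCR4, and CXCR4 returns to the surface of aged neutrophils. Inflammatory cues induce the ELR ligands through NF-kB, and neutrophils themselves release CXCL2 and so recruit more neutrophils.

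The coding bases around the paired cysteines are shown because they separate the CXCR2 ligands from Pf4 and Cxcl12. Each line gives 39 bases of the coding strand from the GENCODE M21 transcripts (GRCm38, the build of the files). Capitals mark 6 codons, the 3 codons before the first cysteine and then Cys-X-Cys.
Cxcl1: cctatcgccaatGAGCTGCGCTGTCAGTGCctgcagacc
Cxcl2: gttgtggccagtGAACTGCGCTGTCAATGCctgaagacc
Cxcl3: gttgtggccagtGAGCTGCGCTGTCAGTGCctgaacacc
Cxcl5: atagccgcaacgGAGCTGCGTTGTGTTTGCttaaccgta
Ppbp: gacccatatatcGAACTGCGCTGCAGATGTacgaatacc
Pf4: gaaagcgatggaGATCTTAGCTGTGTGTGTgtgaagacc
Cxcl12: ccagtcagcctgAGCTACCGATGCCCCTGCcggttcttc
The Glu-Leu-Arg codons were found in Cxcl1, Cxcl2, Cxcl3, Cxcl5 and Ppbp and were absent from Pf4 and Cxcl12. Cxcl1 and Cxcl3 were identical at 18 of the 18 capital bases, and Cxcl2 matched each of them at 16 of 18. Between Pf4 and Cxcl12, 5 of 18 bases were the same. Reads of Cxcl1, Cxcl2 and Cxcl3 could therefore resemble each other over such stretches, and how reads that fit more than 1 gene were counted is not given in the sources used here.

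On GRCm38, 6 members form a cluster of 146579 bases on chromosome 5, all on the plus strand. In order along the chromosome they are Cxcl5 (ENSMUSG00000029371, 90759360 to 90761624), Ppbp (ENSMUSG00000029372, 90768518 to 90770063), Pf4 (ENSMUSG00000029373, 90772435 to 90773383), Cxcl3 (ENSMUSG00000029379, 90786103 to 90789600), Cxcl1 (ENSMUSG00000029380, 90891241 to 90893115) and Cxcl2 (ENSMUSG00000058427, 90903871 to 90905938). Cxcl12 (ENSMUSG00000061353) lies on chromosome 6 at 117168535 to 117181367, plus strand. Both receptor genes lie on chromosome 1, Cxcr2 (ENSMUSG00000026180) at 74153989 to 74161246 on the plus strand and Cxcr4 (ENSMUSG00000045382) at 128588199 to 128592293 on the minus strand.

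Promoters of Cxcl1, Cxcl2 and Cxcl3 are shown because these 3 ligands had ratios under 1 together in the neutrophil-like, monocyte-like and macrophage-like cells described next, and their promoters share an NF-kB motif. Each line gives the 130 bases before the start site from RefSeq (GRCm38.p6, plus strand). These are chr5:90891115-90891244 for Cxcl1, chr5:90903769-90903898 for Cxcl2 and chr5:90785971-90786100 for Cxcl3. Capitals mark matches to the NF-kB consensus.
Cxcl1: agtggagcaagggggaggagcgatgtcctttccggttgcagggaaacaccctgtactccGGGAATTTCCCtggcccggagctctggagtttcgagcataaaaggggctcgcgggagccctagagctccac
Cxcl2: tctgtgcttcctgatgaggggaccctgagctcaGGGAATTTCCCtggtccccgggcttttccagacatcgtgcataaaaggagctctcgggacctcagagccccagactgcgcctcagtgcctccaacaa
Cxcl3: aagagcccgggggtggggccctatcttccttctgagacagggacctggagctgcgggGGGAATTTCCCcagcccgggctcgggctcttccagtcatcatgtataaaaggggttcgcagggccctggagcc
The stretch GGGAATTTCCC began 71, 97 and 73 bases before the start of Cxcl1, Cxcl2 and Cxcl3, and 12 of 32851 promoters of 300 bases (250 before and 50 after the start) held it. It contains 2 overlapping matches to the NF-kB consensus, which was searched on both strands and was present in 4.51% of those promoters. Promoters of 8 members were in the table, and among them the consensus was found in these 3. The STAT motif TTCNNNGAA, bound by factors of the family that IL-27 signals through, was found in none of the 8 and in 8.30% of all promoters. A match describes letters in this window only.

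The 2 matrices held 10183 barcodes with 43868189 UMIs in the IL-27 group and 10784 barcodes with 54049661 UMIs in controls, and 9990 and 10617 cells passed the filters. Each group is 1 matrix, because the 2 entries that the labels give per group are not told apart by the barcodes, so n = 1 per group. No difference has a replicate check and no test was made. Intervals are 95% and exact (Poisson for a level, Clopper-Pearson for a share, conditional binomial for a ratio), and they cover counting error only. Levels are a gene's UMIs per 1000000 UMIs of its class (CPM), ratios are IL-27 over control, and a gene is called higher or lower at a ratio of 1.5 in either direction with at least 20 UMIs. The matrices share 133 barcodes.

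Cells were put into classes by the UMIs of marker genes that include none of the 9 members. Although the labels call the cells lymphocytes, the largest class was neutrophil-like, with 41.0% (40.1 to 42.0) of IL-27 cells and 47.7% (46.7 to 48.7) of control cells. The 10 neutrophil markers, S100a8 and Csf3r among them, summed to 37248 CPM in IL-27 neutrophil-like cells and 44972 CPM in control ones. T cell-like cells made up 6.55% (6.07 to 7.05) of IL-27 cells and 5.75% (5.31 to 6.21) of control cells. Cells of the tumour (epithelial)-like and fibroblast-like classes numbered 200 and 81 in the IL-27 matrix and 267 and 62 in the control matrix. Tumour cells and fibroblasts are not expected to carry CD45, so their numbers depend on what passed the beads. Unassigned cells were shallow, with a median of 966 UMIs in the IL-27 matrix and 986 in controls, and made up 19.8% (19.0 to 20.6) and 14.7% (14.0 to 15.3). Neutrophil-like cells had a median of 1624 UMIs in the IL-27 matrix, against 2162 in controls.

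Each gene had a main source. Neutrophil-like cells held 71.6% of all Cxcl2 UMIs in the IL-27 matrix and 79.3% in controls. They also held most of the Cxcl3 UMIs, 64.7% against 73.5%. Their part of the Cxcl1 UMIs was 46.1% in the IL-27 matrix and 61.5% in controls. The class that carries Cxcr2 was thus also the main holder of Cxcl1, Cxcl2 and Cxcl3 transcripts in both matrices. Fibroblast-like cells held 13.3% of the Cxcl1 UMIs in the IL-27 matrix, against 5.31% in controls, from under 1% of the cells. Tumour-like cells held 65.4% of the Cxcl5 UMIs in the IL-27 matrix and 78.9% in controls. Macrophage-like cells held 65.5% and 71.0% of the Pf4 UMIs in the same order, and 58.3% and 67.8% of the Ppbp UMIs. The receptors differed from each other. Of the Cxcr2 UMIs, 93.3% in the IL-27 matrix and 94.9% in controls were in neutrophil-like cells, whereas Cxcr4 was spread over neutrophil-like (40.0% and 52.9%), T cell-like (17.6% and 13.4%) and several other classes.

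**Figure D1:**
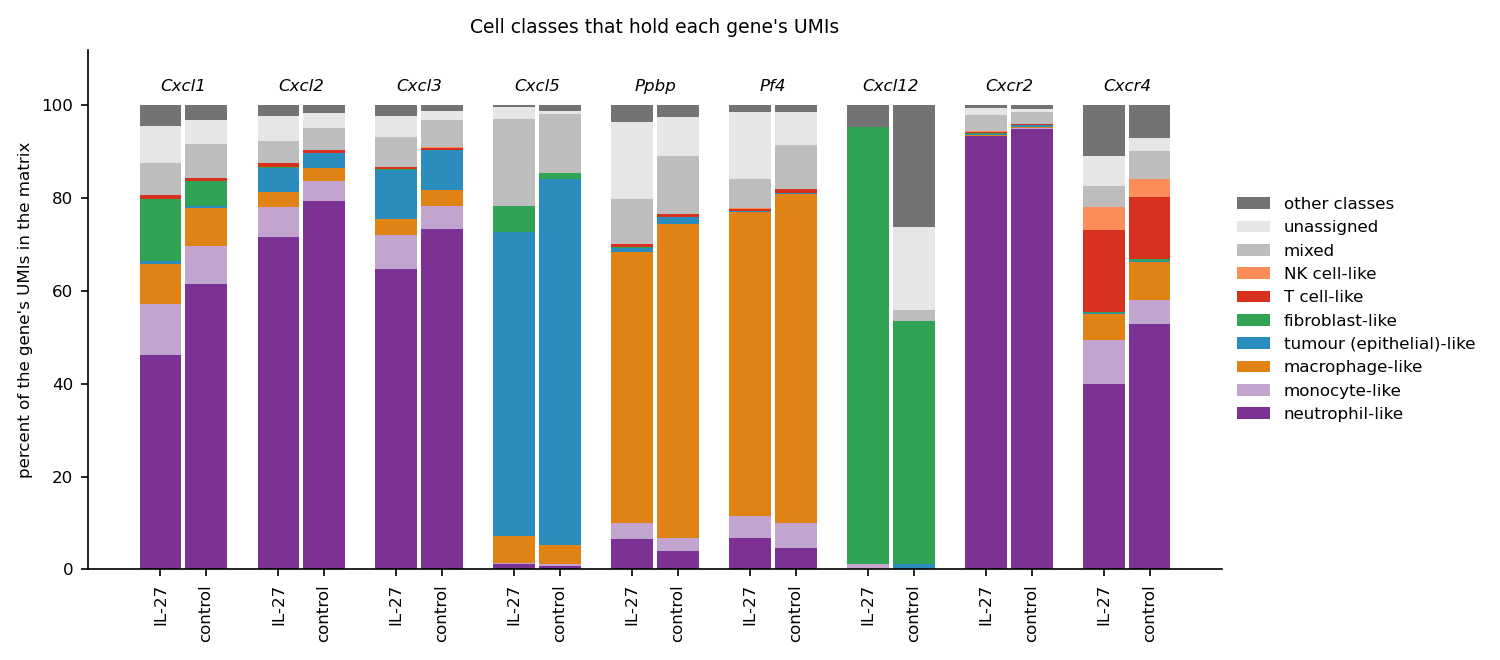
Percent of each gene's UMIs (vertical axis) held by each cell class, with the IL-27 bar left of the control bar for each of the 9 genes. Purple, the neutrophil-like class, fills most of the Cxcl2, Cxcl3 and Cxcr2 bars, blue (tumour-like) most of the Cxcl5 bars, and orange (macrophage-like) most of the Ppbp and Pf4 bars.

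Summed over all kept cells, 4 of the 9 members were lower in the IL-27 matrix (Cxcl1, Cxcl2, Cxcl3 and Ppbp) and 0 were higher. The share of all genes past 1.5-fold was not counted for these sums. Cxcl1 stood at 266 CPM in the IL-27 matrix and 583 CPM in controls, a ratio of 0.457 (0.447 to 0.466). Cxcl2 stood at 9058 CPM, against 13873 CPM in controls, a ratio of 0.653 (0.650 to 0.655). Cxcl3 had 2825 CPM in the IL-27 matrix and 4825 CPM in controls, a ratio of 0.586 (0.582 to 0.589). Ppbp had 32.3 CPM in the IL-27 matrix and 56.9 CPM in controls, a ratio of 0.567 (0.532 to 0.604). These sums combine the level per class with the classes' parts of all UMIs, and the neutrophil-like part was 17.3% of the UMIs in the IL-27 matrix and 22.9% in controls.

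Within neutrophil-like cells, Cxcl1 was the ELR ligand with the lowest ratio. It had 708 CPM (5350 UMIs) in the IL-27 matrix and 1565 CPM (19280 UMIs) in controls, a ratio of 0.452 (0.439 to 0.466) or a log2 ratio of -1.14. Cxcl3 had 10546 CPM in the IL-27 matrix and 15489.8 CPM in controls, a ratio of 0.681 (0.675 to 0.686). Cxcl2 had 37413 CPM, against 48072 CPM in controls, a ratio of 0.778 (0.775 to 0.782). All 3 intervals lay under 1, but Cxcl2 and Cxcl3 did not reach 1.5-fold. Scaled by the median ratio of all genes, Cxcl3 passed it, at 0.632 (0.626 to 0.637). Of the 8 members with at least 20 UMIs in this class, 2 were higher (Cxcl5, at 13 UMIs in each matrix, and Pf4) and 1 was lower (Cxcl1), while of 10287 genes 14.6% were higher and 7.29% lower. The members' count is thus near the background. The median log2 ratio of those genes was 0.11, so a gene at a ratio of 1 lay slightly under the median.

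Cxcl2 was found in nearly every neutrophil-like cell, so the difference lay in its amount. After each cell was thinned to 1000 UMIs, which left 3409 IL-27 cells and 4526 control cells, 98.3% (97.8 to 98.7) of IL-27 cells and 98.1% (97.7 to 98.5) of control cells had a Cxcl2 UMI. The median cell carried 24 Cxcl2 UMIs of 1000 in the IL-27 matrix and 33 in controls. The lowest 10% of cells reached at most 5 in the IL-27 matrix and 6 in controls, and the highest 10% began at 98 and 114. The distributions were broad and overlapped over most of their range. Cxcl1 was confined to a minority of the cells. Its share of thinned cells with a UMI was 16.5% (15.2 to 17.7) in the IL-27 matrix and 26.0% (24.7 to 27.3) in controls, and 105 IL-27 cells and 211 control cells (2.56% and 4.17% of the class) held 50% of its UMIs. Cxcl3 was found in 82.0% (80.7 to 83.3) of IL-27 cells and 84.0% (82.9 to 85.1) of control cells, with a median of 6 and 9 UMIs per 1000.

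**Figure D2:**
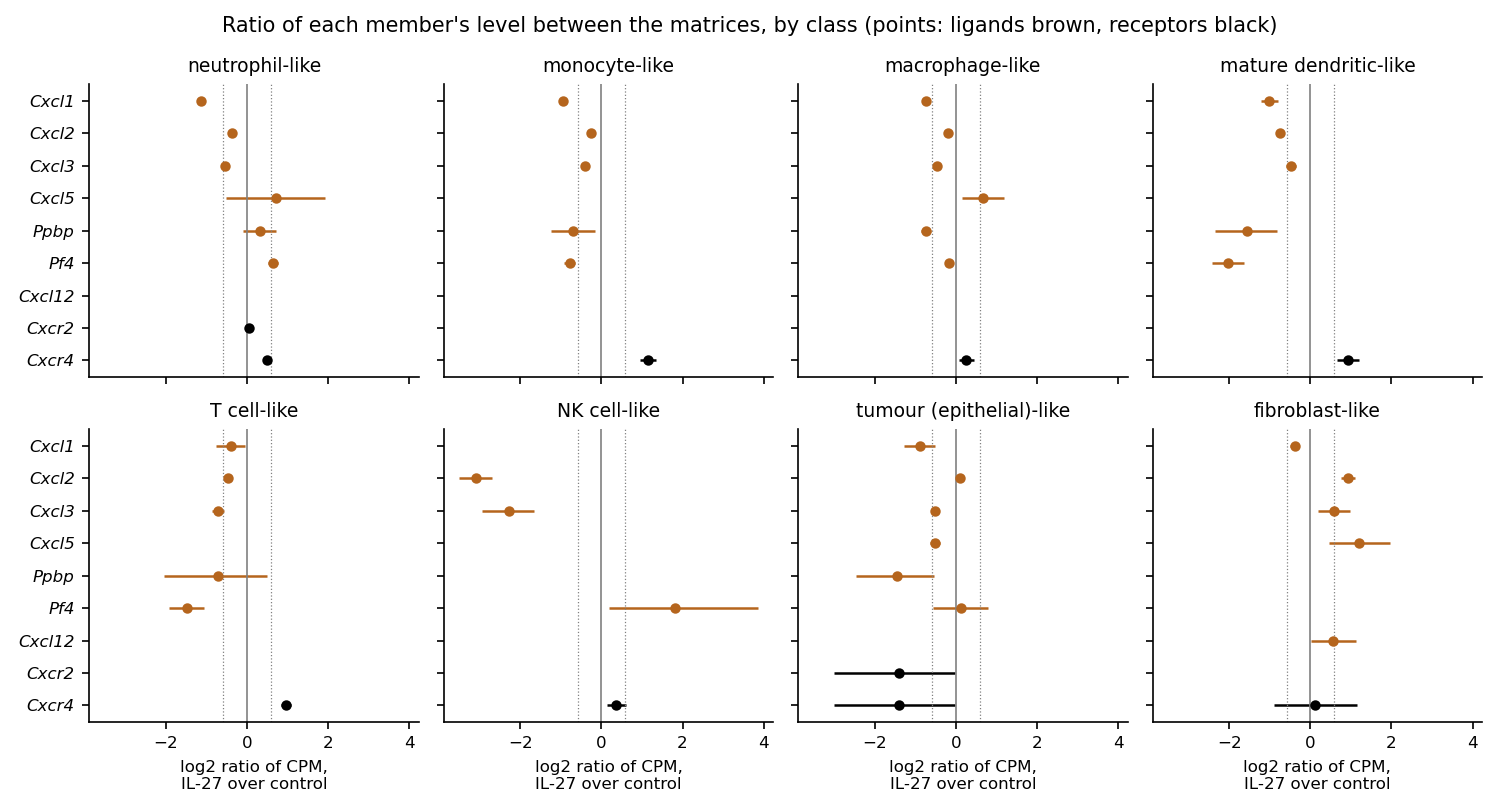
Log2 ratio of the level in CPM, IL-27 over control (horizontal axis), for each member (vertical axis) in 8 classes, shown where there are at least 20 UMIs in all and over 3 in each matrix. Bars are 95% counting intervals from 1 matrix per group, and dotted lines mark 1.5-fold. Cxcl1 lies left of 0 in each of the 7 panels that show it, and Cxcr4 lies right of 0 in 7 of its 8 panels, the exception being tumour-like cells with 6 and 19 UMIs.

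Genes that respond to tissue handling moved with these ligands in neutrophil-like cells. A list of 12 immediate early and heat shock genes (such as Fos, Egr1 and Hspa1a) summed to 9013 CPM in the IL-27 matrix and 13124 CPM in controls, a ratio of 0.687, with 0 of 12 higher and 6 lower. In monocyte-like cells the sum had a ratio of 0.847, with 1 of 12 higher and 5 lower and a median log2 ratio of -0.42, and Hspa1a had the lowest ratio there, 0.247. In macrophage-like cells the sum was higher, at 4208 CPM, against 3689 CPM in controls, a ratio of 1.14, while Cxcl1 in the same cells had a ratio of 0.5999 (0.557 to 0.646). The part of handling in the neutrophil-like values was not tested.

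In the other myeloid classes Cxcl1 was lower in the IL-27 matrix by similar ratios. Monocyte-like cells had 396 CPM of Cxcl1 in the IL-27 matrix and 761 CPM in controls, a ratio of 0.520 (0.486 to 0.556). In cells of 1000 to 3000 UMIs only (101 IL-27 cells and 55 control cells) this ratio was 1.09 (0.829 to 1.44), so the lower call was not seen in those shallower cells. With a stricter gate the monocyte-like ratio was 0.688 (0.637 to 0.743), just short of 1.5-fold. Macrophage-like cells had 273 CPM, against 455 CPM in controls, a ratio of 0.5999 (0.557 to 0.646). In macrophage-like cells of 1000 to 3000 UMIs (569 IL-27 cells and 551 control cells) it was 0.728 (0.624 to 0.8496), which no longer reached 1.5-fold. Mature dendritic-like cells had 107 CPM in the IL-27 matrix and 216 CPM in controls, a ratio of 0.495 (0.426 to 0.575). In conventional dendritic type 2-like cells, which prime helper T cells, the ratio was 0.609 (0.501 to 0.738). In type 1-like cells, which cross-present antigen, the UMIs sat in a few cells. Of the 50 Cxcl1 UMIs of IL-27 type 1 cells and the 197 of control type 1 cells, the top cell held 32% and 42.1%, and without the highest doublet scores the ratio of 0.247 became 0.999.

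Cxcl2 and Cxcl3 were closer to even in monocyte-like and macrophage-like cells. Cxcl2 had 8033 CPM in IL-27 monocyte-like cells and 9529 CPM in control ones, a ratio of 0.843 (0.829 to 0.857). Cxcl3 had 2794 CPM, against 3691 CPM in controls, a ratio of 0.757 (0.737 to 0.778). In macrophage-like cells Cxcl2 had 3370.1 CPM in the IL-27 matrix and 3842 CPM in controls, a ratio of 0.877 (0.858 to 0.897). The Cxcl3 ratio there was 0.719 (0.693 to 0.746). Mature dendritic-like cells had a Cxcl2 ratio of 0.596 (0.567 to 0.626). Of the members with 20 UMIs, 1 of 6 was higher (Cxcr4) and 3 were lower (Cxcl1, Ppbp and Pf4) in monocyte-like cells, where 6.78% of all genes were higher and 9.05% lower. In macrophage-like cells 1 of 7 was higher (Cxcl5) and 2 were lower (Cxcl1 and Ppbp), beside 6.55% and 6.65% of all genes. In mature dendritic-like cells 1 of 6 was higher (Cxcr4) and 4 were lower (Cxcl1, Cxcl2, Ppbp and Pf4), beside 11.8% and 9.44% of all genes.

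The mix of the ligands depended on the class. Tumour-like cells, which carry keratin transcripts, held Cxcl3 and Cxcl2 at 0.627 Cxcl3 UMIs per Cxcl2 UMI in the IL-27 matrix and 0.960 in controls. Neutrophil-like cells had 0.282 and 0.322 in the same order. In both matrices the ratio was thus higher in tumour-like than in neutrophil-like cells. Tumour-like cells had 1312 CPM of Cxcl3 in the IL-27 matrix and 1877 CPM in controls, a ratio of 0.699 (0.684 to 0.714). For Cxcl2 they had 2092 CPM, against 1955 CPM in controls, a ratio of 1.07 (1.05 to 1.09). Cells of this class without any S100a8 or S100a9 UMI (179 IL-27 and 236 control cells), 2 abundant neutrophil transcripts, had 1264 CPM of Cxcl3 in the IL-27 matrix and 1741 CPM in controls. These 2 transcripts differed between the groups here. In tumour-like cells S100a9 stood at 12.4 CPM in the IL-27 matrix and 57.5 CPM in controls, and S100a8 at 10.1 and 39.1 CPM. The 10 neutrophil markers summed to 510.6 CPM in IL-27 tumour-like cells and 873 CPM in control ones. S100a8 and S100a9 were a small part of that sum, so it is not a gauge of neutrophil transcripts in this class. Without the cells that carry S100a8 or S100a9 the Cxcl3 ratio was 0.726 (0.709 to 0.743). The part of stray neutrophil transcripts in the remaining cells was not tested. With a stricter marker gate the Cxcl2 ratio was 0.810 (0.789 to 0.831), so the direction of Cxcl2 in this class depended on the gate. Under that gate (92 IL-27 cells and 94 control cells) Cxcl3 had a ratio of 0.604 (0.584 to 0.624), past 1.5-fold lower. Cxcl1 was scarce in tumour-like cells, with 8.61 CPM in the IL-27 matrix and 16.04 CPM in controls.

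Fibroblast-like cells had the opposite mix, with more Cxcl1 than Cxcl2 UMIs. They held 1.63 Cxcl1 UMIs per Cxcl2 UMI in the IL-27 matrix and 4.05 in controls, whereas neutrophil-like cells held 0.0189 and 0.0326. Their Cxcl1 level was 1210.1 CPM in the IL-27 matrix and 1586 CPM in controls, a ratio of 0.763 (0.711 to 0.818). In the IL-27 matrix this was the highest Cxcl1 level of the 10 classes with at least 50 cells, and in controls it lay beside the neutrophil-like level of 1565 CPM. Without cells that carry S100a8 or S100a9 UMIs it was 0.6001, past 1.5-fold lower. A few cells decided the values. In the IL-27 matrix 7 of 81 fibroblast-like cells held 50% of the Cxcl1 UMIs, and in controls 4 of 62. Cxcl2 in fibroblast-like cells had 742 CPM in the IL-27 matrix and 391 CPM in controls, a ratio of 1.90 (1.69 to 2.13), and 1 IL-27 cell held 36.1% of those UMIs. Without cells that carry S100a8 or S100a9 UMIs the ratio was 0.904 (0.763 to 1.07), so the higher Cxcl2 call of this class rested on cells that also held neutrophil transcripts. S100a9 itself stood at 23.6 CPM in IL-27 fibroblast-like cells and 433 CPM in control ones. Of the 6 measured members 2 were higher (Cxcl2 and Cxcl5) and 0 lower in fibroblast-like cells, beside 12.3% and 16.1% of all genes.

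**Figure D3:**
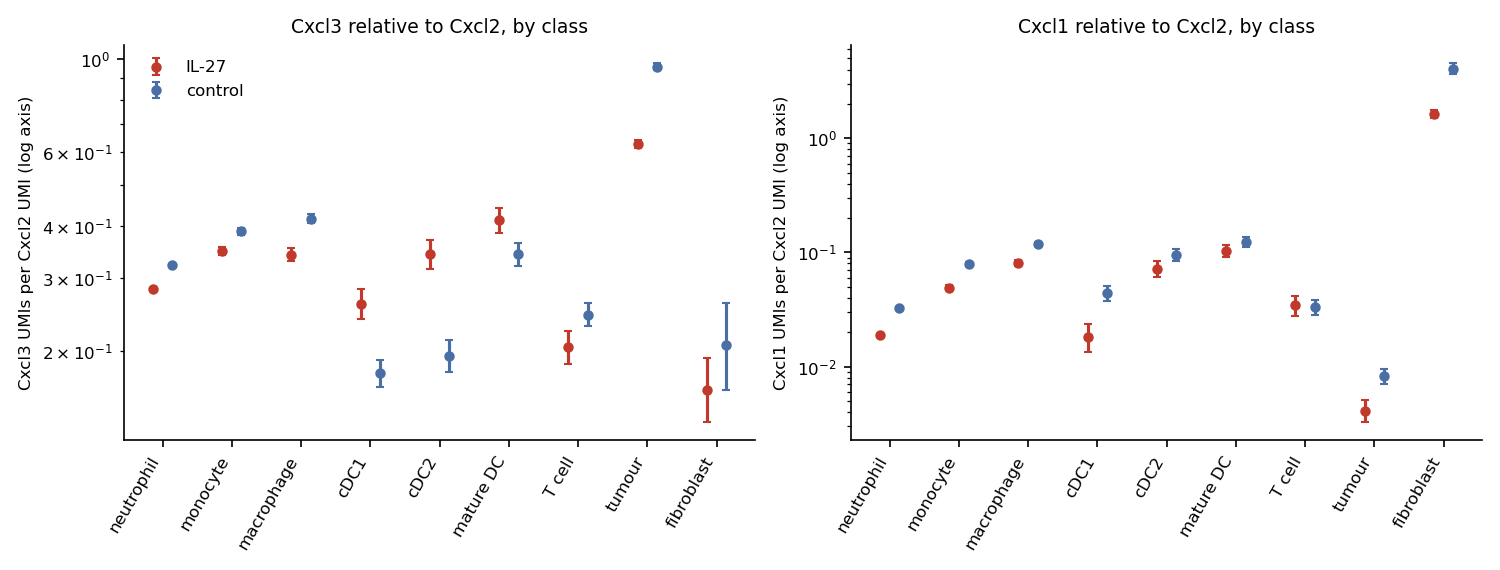
Cxcl3 UMIs per Cxcl2 UMI (left) and Cxcl1 UMIs per Cxcl2 UMI (right) in 9 classes, on log axes, with the IL-27 matrix in red left of the control matrix in blue and 95% counting intervals (cDC1, cDC2 and mature DC are the 3 dendritic classes). Tumour-like cells stand highest for Cxcl3, at 0.627 and 0.960, and fibroblast-like cells highest for Cxcl1, at 1.63 and 4.05.

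T cell-like and NK cell-like cells, which are not known as sources of these ligands, also held some of their UMIs. A few cells held much of these UMIs, so the levels below are not those of an even background. In T cell-like cells Cxcl2 had 742 CPM in the IL-27 matrix and 1020 CPM in controls, a ratio of 0.728 (0.695 to 0.762). The Cxcl3 ratio there was 0.608 (0.550 to 0.670) and the Cxcl1 ratio 0.756 (0.585 to 0.972), so these ratios lay under 1 too. Mature dendritic-like cells had 1041 and 1747 CPM of Cxcl2. The part of UMIs from other cells in the ratios of any class was not tested. Cxcl2 was seen in 8.10% (6.11 to 10.5) of thinned T cell-like cells of the IL-27 matrix and 9.63% (7.40 to 12.3) of control ones. Their median depth before thinning was 4210 UMIs in the IL-27 matrix and 6028 in controls. Its UMIs were concentrated, since 5 IL-27 cells and 9 control cells held 50% of them, and 1 cell in each matrix held 459 and 461 UMIs. In NK cell-like cells Cxcl2 stood at 76.3 CPM in the IL-27 matrix and 656 CPM in controls, under the T cell-like levels. These were 59 UMIs in the IL-27 matrix and 449 in controls, and 1 control cell held 47.9% of the latter. In the IL-27 matrix 1 cell held 37.3%. For Cxcl3, with 27 UMIs in IL-27 NK cell-like cells and 117 in control ones, the top cells held 70.4% and 47.0%.

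**Figure D4:**
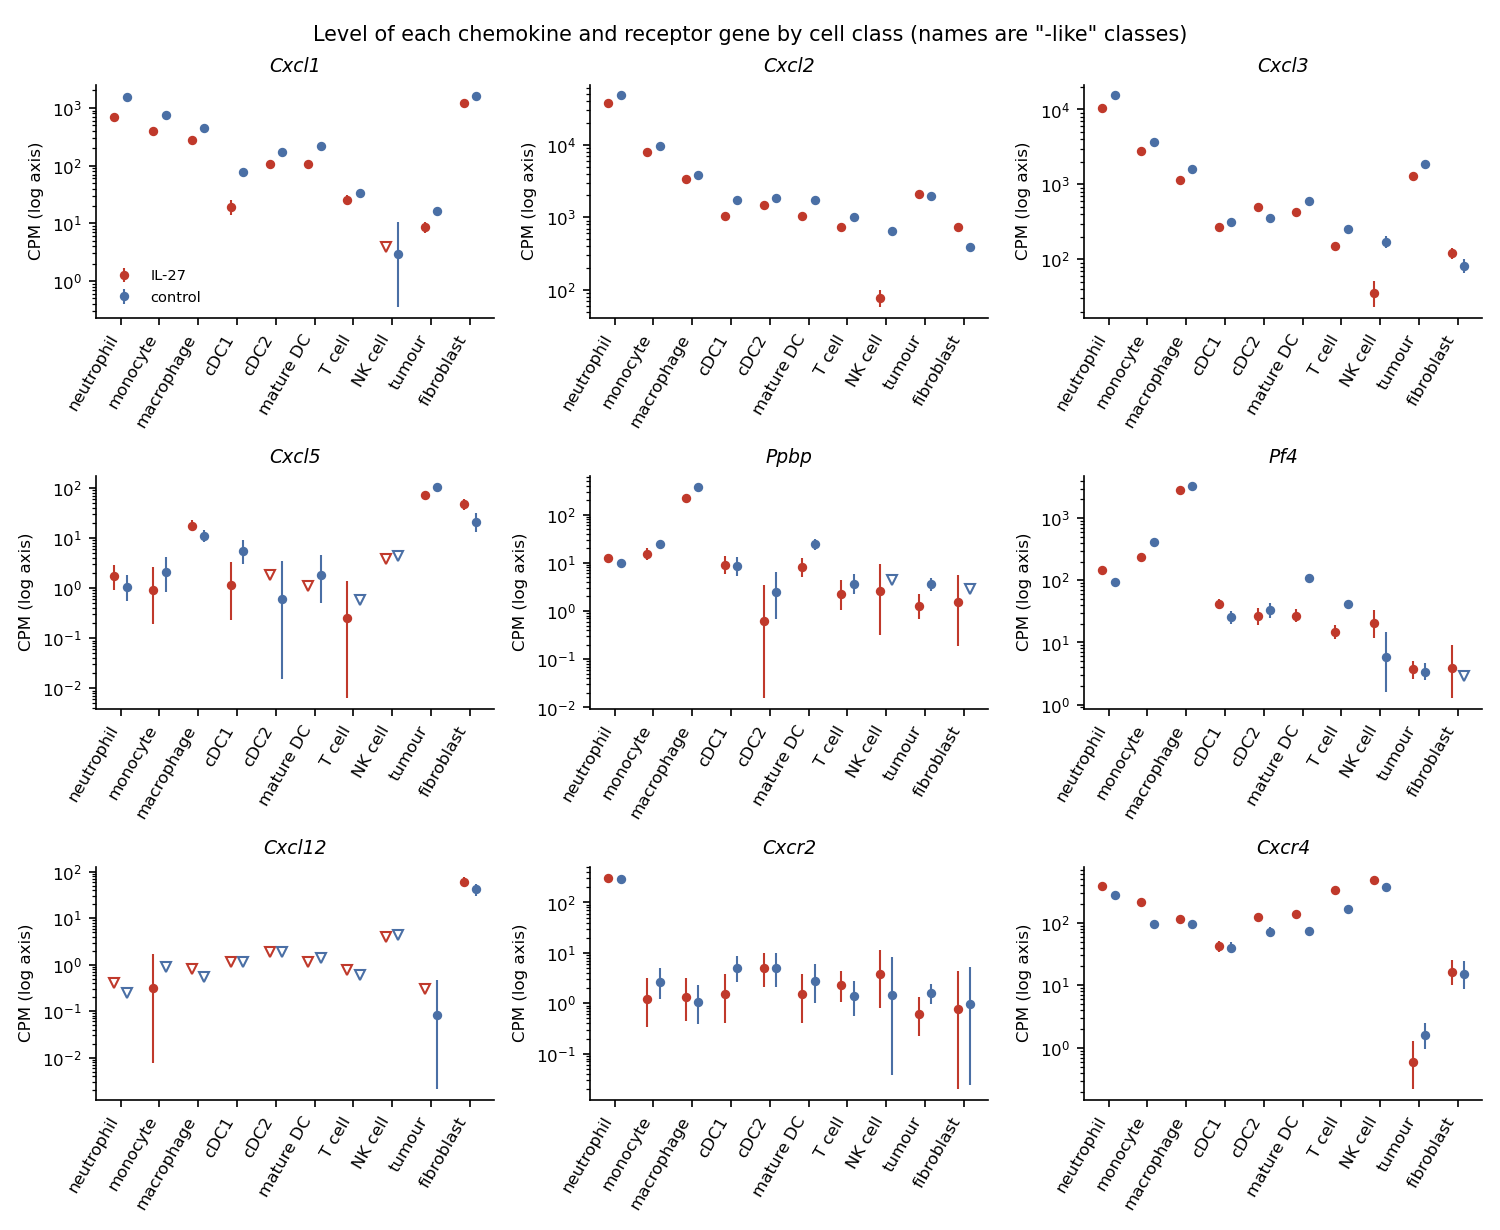
Level of each of the 9 genes (CPM, log axis) in the 10 classes with at least 50 cells in both matrices, IL-27 in red left of control in blue, with 95% Poisson intervals. Open triangles mark classes with 0 UMIs and stand at the level of 3 counts. Cxcl2 spans from 37413 and 48072 CPM in neutrophil-like cells to 76.3 and 656 CPM in NK cell-like cells.

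Cxcl5 was a gene of the tumour-like class. It had 72.5 CPM (725 UMIs) in IL-27 tumour-like cells and 104 CPM (1247 UMIs) in control ones, a ratio of 0.700 (0.638 to 0.768). With the stricter gate the ratio was 0.602 (0.520 to 0.695), past 1.5-fold lower. UMIs were found in 37% of these cells in the IL-27 matrix and 39.7% in controls, at median depths of 46686 and 42928 UMIs. After thinning to 1000 UMIs the shares were 5.56% (2.81 to 9.72) and 8.08% (5.07 to 12.1), and T cell-like cells held 1 and 0 Cxcl5 UMIs in all. Within the class 8 IL-27 cells and 13 control cells held 50% of the UMIs. Macrophage-like cells had 17.7 CPM in the IL-27 matrix and 11.1 CPM in controls, a ratio of 1.59 (1.11 to 2.29), from 65 and 62 UMIs. Of the IL-27 UMIs 1 cell held 20% and 3 cells held 50%, and the share of macrophage-like cells with a Cxcl5 UMI was 1.59% in the IL-27 matrix and 2.19% in controls, in the other direction. Fibroblast-like cells held 61 Cxcl5 UMIs in the IL-27 matrix and 22 in controls, a ratio of 2.29 (1.38 to 3.91), and 2 cells in each matrix held 50% of them. The Cxcl5 level of neutrophil-like cells was at most 1.72 CPM. In tumour-like cells 0 of 8 measured members were higher and 4 were lower (Cxcl1, Ppbp, Cxcr2 and Cxcr4, each under 200 UMIs per matrix), beside 5.13% and 7.36% of all genes. S100a8 and S100a9 were also lower in this class in the IL-27 matrix, and the part of neutrophil transcripts in these 4 was not tested.

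Pf4 and Ppbp, best known from platelets, were genes of the macrophage-like class here. Pf4 had 2884 CPM in IL-27 macrophage-like cells and 3232 CPM in control ones, a ratio of 0.892 (0.871 to 0.914). It was found in 61.8% (58.6 to 64.8) of thinned IL-27 cells and 64.6% (61.8 to 67.3) of thinned control cells of that class. Ppbp had 224 CPM in the IL-27 matrix and 373 CPM in controls, a ratio of 0.5998 (0.553 to 0.651). After thinning, a Ppbp UMI was present in 8.62% (6.94 to 10.5) of the IL-27 cells and 11.8% (10.0 to 13.8) of the control cells. A single control cell held 11.2% of the Ppbp UMIs, and 14 control cells held 50%. In cells of 1000 to 3000 UMIs the Ppbp ratio was 0.907 (0.747 to 1.10). Platelet markers were near 0 in these cells. Gp9, Gp1bb, Gp5, Tubb1 and Gp6 had 0 UMIs in macrophage-like cells of either matrix, Itga2b had 2 in the IL-27 matrix and 5 in controls, Treml1 had 1 and 4, and Clec1b had 14 and 28. No cell was put in the platelet class in either matrix.

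Outside macrophage-like cells, Pf4 differed in direction between classes. Neutrophil-like cells had 147 CPM in the IL-27 matrix and 94.4 CPM in controls, a ratio of 1.55 (1.43 to 1.69). Summed macrophage markers in the same cells stood at 239 CPM in the IL-27 matrix and 194 CPM in controls, and 18 IL-27 cells and 23 control cells held 50% of the Pf4 UMIs. Their part in the ratio was not tested. Monocyte-like cells had 236 CPM, against 407 CPM in controls, a ratio of 0.581 (0.531 to 0.635). Mature dendritic-like cells had 26.97 CPM in the IL-27 matrix and 110.3 CPM in controls, from 72 and 240 UMIs.

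Cxcl12 was almost absent from this CD45-selected sample. Over all kept cells it had 84 UMIs in the IL-27 matrix and 84 in controls, in 11 cells each. Fibroblast-like cells held 79 of them in the IL-27 matrix and 44 in controls, which is 62.1 and 41.9 CPM. Of these, 56 and 37 UMIs came from 1 cell in each matrix. A single endothelial-like cell held 4 UMIs in the IL-27 matrix and another held 22 in controls, among 11 and 10 cells of that class. No Cxcl12 UMI was found in neutrophil-like, macrophage-like, T cell-like or NK cell-like cells. Since 1 cell carried most of the fibroblast-like UMIs in each matrix, no difference between the groups is read from the ratio of 1.48 (1.01 to 2.19).

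Cxcr2, the receptor of the ELR ligands, had nearly the same level per UMI in neutrophil-like cells of both matrices, and the interval of its ratio included 1. It had 306 CPM (2311 UMIs) in the IL-27 matrix and 297 CPM (3655 UMIs) in controls, a ratio of 1.03 (0.978 to 1.09). A Cxcr2 UMI was found in 22.3% (20.9 to 23.7) of thinned IL-27 cells and 20.97% (19.8 to 22.2) of thinned control cells. In T cell-like cells, which are not known to carry it, the shares were 0% (0 to 0.573) and 0.332% (0.0403 to 1.19). Scaled by the median ratio of all genes, the Cxcr2 ratio was 0.956 (0.907 to 1.01), and in cells of 1000 to 3000 UMIs it was 1.18 (1.10 to 1.25), so its direction depended on the scaling. The gate put 3 cells in the immature neutrophil class in each matrix. A cell with some marrow-stage transcripts can still be classed as neutrophil-like, and their level in that class was not measured.

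Receptor and ligand transcripts were unevenly spread among neutrophil-like cells. Cells were divided by Cxcl2 UMIs per 1000 into 0 to 9, 10 to 49 and 50 or more, cuts chosen with the data in view. The top range held 26.9% of IL-27 cells and 36.4% of control cells. Cxcr2 was detected in 25.0%, 27.1% and 10.8% of IL-27 cells from the lowest to the highest range, and in 20.3%, 28.6% and 10.9% of control cells. The cells richest in Cxcl2 thus had the lowest share with Cxcr2 in both matrices, with intervals apart from the other ranges. Cxcr4 also had its lowest share in the top range, with 35.4%, 28.8% and 17.2% in IL-27 cells and 23.7%, 24.9% and 13.8% in control cells. Cxcl1 ran the other way, with 4.68%, 11.7% and 34.4% in IL-27 cells and 7.83%, 19.0% and 42.7% in controls. Within each range Cxcl1 was found in a smaller share of IL-27 cells than of control cells. In the lowest range the intervals overlapped, 3.18 to 6.61 in IL-27 cells and 5.89 to 10.2 in control cells. The ranges are wide, so cells within a range are not matched for Cxcl2. Cells compared within a matrix are not replicates, and a cell with many Cxcl2 UMIs has fewer of its 1000 UMIs left for other genes.

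**Figure D5:**
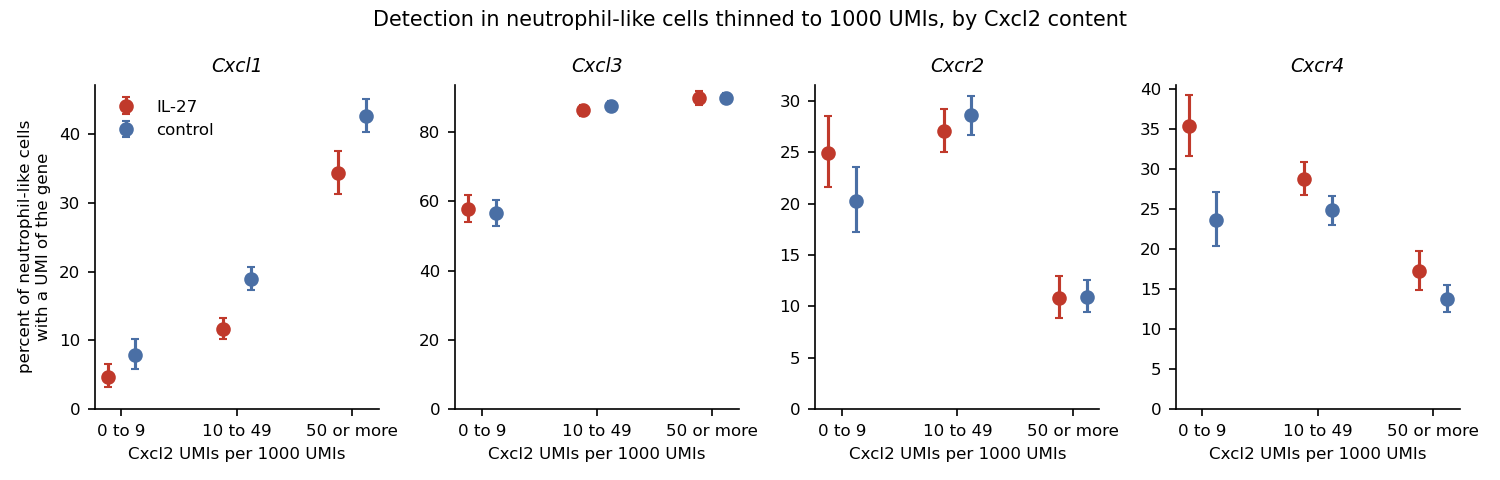
Percent of neutrophil-like cells with a UMI of Cxcl1, Cxcl3, Cxcr2 or Cxcr4 (vertical axes) by Cxcl2 UMIs per 1000 (horizontal axes), after each cell was thinned to 1000 UMIs, IL-27 in red left of control in blue, with 95% exact binomial intervals. Cxcl1 is highest, and Cxcr2 and Cxcr4 are lowest, among cells with 50 or more Cxcl2 UMIs.

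Cxcr4 passed 1.5-fold in monocyte-like, type 2 conventional dendritic-like, mature dendritic-like and T cell-like cells, where it was higher in the IL-27 matrix. In neutrophil-like cells it had 389 CPM in the IL-27 matrix and 276 CPM in controls, a ratio of 1.41 (1.34 to 1.48), under the 1.5-fold mark. The share of thinned cells with a Cxcr4 UMI was 26.9% (25.4 to 28.5) in the IL-27 matrix and 20.7% (19.5 to 21.9) in controls. Without thinning the shares were 35.9% and 34.2%, from cells of different depth. Cells with Cxcr4 and no Cxcr2 made up 19.9% of thinned IL-27 cells and 16.1% of control cells, and cells with Cxcr2 and no Cxcr4 15.3% and 16.4%. Cells with both made up 7.04% in the IL-27 matrix and 4.53% in controls. The receptors did not exclude each other, since Cxcr4 was found in 31.6% of IL-27 cells with Cxcr2 and 25.6% of those without it, and in 21.6% and 20.4% of control cells.

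In monocyte-like cells Cxcr4 had 214 CPM in the IL-27 matrix and 96.3 CPM in controls, a ratio of 2.23 (1.95 to 2.55), and its share of thinned cells was 17.5% (14.4 to 20.9) and 9.68% (7.15 to 12.7). In monocyte-like cells of 1000 to 3000 UMIs (101 IL-27 cells and 55 control cells) the ratio was 1.51 (0.871 to 2.71), an interval that includes 1. Macrophage-like cells had 115 CPM, against 95.7 CPM in controls, a ratio of 1.197 (1.05 to 1.36). Mature dendritic-like cells had 139 CPM in the IL-27 matrix and 73.5 CPM in controls, a ratio of 1.89 (1.57 to 2.30). That call turned to 0.344 (0.136 to 0.805) in cells of 1000 to 3000 UMIs, of which there were 86 and 60. In type 2 conventional dendritic-like cells the ratio was 1.70 (1.35 to 2.16), and in type 1 cells 1.06 (0.801 to 1.40). Type 2 cells had 1 of 5 measured members higher and 1 lower (Cxcl1), beside 9.6% and 11.2% of all genes, and type 1 cells 1 of 6 higher (Pf4) and 2 lower (Cxcl1 and Cxcl2), beside 9.99% and 7.52%.

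T cell-like cells had 327 CPM of Cxcr4 in the IL-27 matrix and 168 CPM in controls, a ratio of 1.94 (1.78 to 2.12). In T cell-like cells of 1000 to 3000 UMIs (165 IL-27 cells and 79 control cells) the ratio was 1.32 (1.03 to 1.72), under 1.5-fold. The class also differed in its detected UMIs. Cells with a Foxp3 UMI, the transcript of regulatory T cells, were 47.4% in the IL-27 matrix and 35.9% in controls. Cells with a Cd8a UMI and no Foxp3 UMI were 15.0% and 41.1%, and cells with neither were 37.6% and 23.0%. Cells were not thinned for these shares, and median depth was 4210 UMIs in the IL-27 matrix and 6028 in controls. The part of depth in the shares was not tested. Within cells with a Foxp3 UMI the Cxcr4 level was 304 CPM in the IL-27 matrix and 226 CPM in controls, a ratio of 1.35 (1.19 to 1.53). Within Cd8a cells it was 173 CPM, against 84.7 CPM in controls, a ratio of 2.05 (1.65 to 2.53). In cells with neither UMI the ratio was 1.40 (1.19 to 1.66). The Cxcr4 ratio was thus above 1 in each of the 3 sets, and of these the Cd8a set passed 1.5-fold. NK cell-like cells had the highest Cxcr4 level of the 10 classes in both matrices, 483 CPM in the IL-27 matrix and 374 CPM in controls, a ratio of 1.29 (1.10 to 1.52). In T cell-like cells 1 of 6 measured members was higher (Cxcr4) and 3 were lower (Cxcl3, Ppbp and Pf4), beside 11% and 10.7% of all genes. In NK cell-like cells 1 of 4 was higher (Pf4, from 16 and 4 UMIs) and 2 were lower (Cxcl2 and Cxcl3), beside 10.2% and 14.8%. Unassigned cells had a Cxcr4 ratio of 2.09 (1.75 to 2.49), with 2 of 8 members higher (Cxcl5 and Cxcr4) and 1 lower (Cxcl1), beside 12% and 9.25% of all genes.

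Genes that induce, guide or answer these chemokines were followed in neutrophil-like cells through 6 lists. Other neutrophil attractants and their receptors showed 0 of 18 measured genes higher and 0 lower. The formyl peptide receptor gene Fpr2 had the highest ratio, 1.47 (1.40 to 1.54), and C5ar1, the receptor of complement C5a, the lowest, 0.714 (0.689 to 0.741). On the list of inducers of ELR chemokines 3 of 21 were higher and 3 lower. That list also holds the NF-kB inhibitor genes Nfkbia and Tnfaip3, so its counts and median do not give a direction of induction. Il17ra, the receptor chain for IL-17A, had 104 CPM in the IL-27 matrix and 59.1 CPM in controls, a ratio of 1.76 (1.58 to 1.94). Fos, a subunit of the AP-1 factor, had 285 CPM, against 582 CPM in controls. Fos, Jun and Zfp36 are also on the handling list. In these cells Jun had a ratio of 0.688 and Zfp36 0.538, and Fos and Zfp36 were among the 3 lower genes. Csf2, which encodes GM-CSF, had the lowest ratio, 0.328 (0.216 to 0.485), from 31 UMIs in the IL-27 matrix and 154 in controls. The median log2 ratio of the inducer list was -0.21, beside 0.11 over all genes.

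Adhesion and transmigration genes had 3 of 14 higher and 0 lower, led by Pecam1, an adhesion molecule of cell junctions, with a ratio of 1.82 (1.63 to 2.03). Receptor signalling and desensitization genes had 3 of 23 higher and 0 lower. Pik3cg, the PI3-kinase subunit below chemokine receptors, had a ratio of 1.66 (1.34 to 2.04), Rgs2, a brake on G proteins, 1.61 (1.48 to 1.76), and Rac2, a GTPase of neutrophil migration, 0.710 (0.679 to 0.742). Among genes for scavenging, cleavage and anchoring of chemokines 2 of 6 were higher and 1 lower. Sdc4, a heparan sulfate proteoglycan, had a ratio of 1.82 (1.58 to 2.09), and the collagenase gene Mmp8 0.661 (0.557 to 0.783). Genes of neutrophil production and release had 3 of 12 higher and 2 lower. Csf2rb, the shared receptor chain for GM-CSF, had 993 CPM in the IL-27 matrix and 644 CPM in controls, a ratio of 1.54 (1.49 to 1.59). Il23a, the p19 subunit of IL-23, which drives IL-17A production, had 391 CPM, against 767 CPM in controls, a ratio of 0.510 (0.489 to 0.531). Csf2, Csf3, Il17a and Vcam1 are each in 2 of these lists, and the production list also holds the members Cxcr4 and Cxcl12. S100a8, S100a9, Mmp9 and Csf3r, which are on these lists, are also neutrophil markers of the gate. All of these counts stand beside 14.6% of genes higher and 7.29% lower in the class.

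In the other source classes the lists were read against the backgrounds already given. Monocyte-like cells had 1 of 21 inducers higher and 2 lower, among them Tnf, the cytokine gene that acts through NF-kB, with 289.9 CPM in the IL-27 matrix and 446 CPM in controls, a ratio of 0.651 (0.599 to 0.706). Il23a had a ratio of 0.303 (0.214 to 0.422) there, from 47 UMIs in the IL-27 matrix and 162 in controls. Macrophage-like cells had 0 of 20 genes of the inducer list higher and 2 lower, both cytokine genes. These were Il6 with a ratio of 0.574 (0.455 to 0.718) and Il1a with 0.660 (0.610 to 0.714). With all cells of a class, Il23a in monocyte-like and neutrophil-like cells and Cxcl1 in all 3 myeloid classes thus lay on the lower side. For Cxcl1 in monocyte-like cells this did not hold in cells of 1000 to 3000 UMIs, with a ratio of 1.09 (0.829 to 1.44). Il23a in macrophage-like cells is not given here.

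Tumour-like cells had 10 of 13 measured attractant genes lower and 0 higher, with a median log2 ratio of -1.93 beside -0.05 over all genes of the class. Most of these are genes of myeloid cells, such as Ccl3 with 9.01 CPM in the IL-27 matrix and 52.8 CPM in controls and Ccl4 with 5.60 CPM and 30.7 CPM, and they moved with S100a8 and S100a9, which are on the same list and among the gate's neutrophil markers. Of 21 measured genes of the inducer list 2 were higher and 6 lower, and the 2 were genes of the NF-kB pathway, 1 of them an inhibitor. Nfkb1, an NF-kB subunit, had 215 CPM in IL-27 tumour-like cells and 132 CPM in control ones, a ratio of 1.63 (1.52 to 1.74). Tnfaip3, which encodes the NF-kB inhibitor A20, had a ratio of 1.80 (1.65 to 1.95). Csf3, which encodes the neutrophil growth factor G-CSF, had 16.6 CPM in the IL-27 matrix and 29.6 CPM in controls, a ratio of 0.562 (0.464 to 0.677). Csf2 was abundant and near even, with 1364 CPM in the IL-27 matrix and 1388 CPM in controls. In fibroblast-like cells 6 of 16 genes of the inducer list were higher and 1 lower, the lower one being an inhibitor gene. Il6 had 528 CPM in IL-27 fibroblast-like cells and 228 CPM in control ones, a ratio of 2.32 (2.00 to 2.70), and Nfkbia, the gene of the NF-kB inhibitor IkB-alpha, a ratio of 0.610 (0.558 to 0.668).

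The members differed in which other genes shared their pattern over cell classes. Likeness was the Pearson correlation of log2(CPM + 10) over 20 points, the 10 classes of at least 50 cells in each of the 2 matrices, among 11673 candidate genes. The points share their matrix, depth and gate, and the values are descriptions. Cxcl1 was most like Il13ra1 (r = 0.966), Ifnar2 (0.920) and Dram1 (0.909). Cxcl2 was most like Ralgds (0.928), Amdhd2 (0.923) and Sod2 (0.922). Cxcl3 was most like Gsr (0.963), Fndc3a (0.940) and Ninj1 (0.936). The closest pattern to Cxcl5 was that of Dusp18 (0.969), followed by Tsc22d1 (0.962) and Upp2 (0.953). Both Pf4 and Ppbp lay beside macrophage genes, Pf4 beside Adgre1 (0.955), Trem2 (0.943) and Ccl12 (0.942) and Ppbp beside Trem2 (0.970), Ms4a7 (0.9503) and Folr2 (0.944), of which Adgre1, Trem2 and Ms4a7 are gate markers. Cxcr2 was most like 4930519G04Rik (0.995), Cstdc5 (0.994) and Gm20406 (0.992). Genes with a pattern like that of Cxcr4 included Nabp1 (0.945) and Bend4 (0.925). Cxcl12 had too few UMIs for this comparison.

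Between members, the closest pairs over the same 20 points were Cxcl2 with Cxcl3 (r = 0.962) and Pf4 with Ppbp (0.934), each pair within the chromosome 5 cluster. Cxcl1, which lies between Cxcl3 and Cxcl2 in that cluster, had r = 0.568 with Cxcl2 and 0.445 with Cxcl3. Cxcl5, at the other end, had r = -0.06 with Cxcl2. Cxcl1 and Cxcl5 thus differed from Cxcl2 in the classes that held them, whereas the neighbours Pf4 and Ppbp were both held mainly by macrophage-like cells. Cxcr2 had r = 0.702 with Cxcl2, and Cxcr4 had r = 0.138.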

How the data were processed

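CD45-enriched cells of OV2944-HM1 tumours were read with a droplet 5' kit, per the labels' protocols. The authors deposited 1 matrix of raw UMI counts per group, with Cell Ranger 4.0.0 named in the file headers, so per the file headers that tool made them. The submitters' processing notes also name Seurat 3.2.0 and the build mm10. The role of Seurat, the annotation release and the treatment of reads that match several genes were not stated in the labels or headers. No normalization was applied to the deposited counts.

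A barcode was kept when it had 200 genes or more, 500 UMIs or more and mitochondrial UMIs below 10%. Cells were classed by marker genes, each scaled by its 99.5th percentile, with at least 3 markers detected. A cell was "mixed" and left out of the classes when another lineage scored at least 0.6 of the best. The markers were listed before this scoring rule, whose thresholds were set after the counts were seen. The names are rebuilt from markers, so shares may differ from other annotations. Doublets were treated through the mixed class. Scrublet called 167 cells (1.67%) in the IL-27 matrix and 0 in controls, so it did not work there, and leaving out the 8% of highest scores was an alternative.

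UMIs were summed per class and matrix, as CPM. With n = 1 per group no test was made, although the labels list 2 entries per group. A level in a class with 0 UMIs has an upper limit of 3 counts. UMIs at the 5' end are not scaled by transcript length, so each gene is compared with itself. Thinning used 1 random draw. Pathway genes named are the 2 highest and 2 lowest ratios of a list in a class among genes that reach 50 UMIs in whichever matrix has the higher level, from which the text names some. S100a9, Foxp3 and Cd8a are named where a result turns on them, chosen after their values were seen. For likeness, the 3 genes with the highest correlation to each member are named, apart from 1 gene that is not reported here. The members, lists and comparisons were chosen with earlier results of these data known. Motifs were searched in 300-base RefSeq promoters of GRCm38.p6, and positions and coding bases are from GENCODE M21 on GRCm38. On simulated counts the 95% ratio interval was checked. Python 3.11.15, numpy 2.4.6, scipy 1.17.1, pandas 2.3.3, scanpy 1.11.5 and matplotlib 3.10.9 were used.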

Additional observations from a re-analysis of the deposited data

How the results depend on the processing

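Of 278 alternative values, 171 stayed within the counting interval of the value reported, and 18 of 24 member ratios kept 1 direction under every alternative run. The depth window, the scaling by transcript length and the removal of S100a8 and S100a9 cells were chosen after seeing the data. Among ratios past 1.5-fold, 3 changed direction, Cxcl1 in monocyte-like cells (1.09) and Cxcr4 in mature dendritic-like cells (0.344), both in cells of 1000 to 3000 UMIs, and Cxcl2 in fibroblast-like cells without S100a8 or S100a9 UMIs (0.904). Among ratios within 1.5-fold, another 3 crossed 1. These were Cxcl2 in monocyte-like cells (1.08 in the depth window), Cxcl2 in tumour-like cells (0.810 with the stricter gate and 0.964 after thinning) and Cxcr2 in neutrophil-like cells under both scalings. The depth window also ended the 1.5-fold calls of Cxcr4 in T cell-like cells (1.32) and Cxcl1 in macrophage-like cells (0.728). It ended that of Ppbp in macrophage-like cells (0.907) as well, as did the looser gate (0.708) and thinning (0.770). The cause was not tested.

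In neutrophil-like cells the Cxcl1 ratio was 0.468 with mixed barcodes kept, 0.488 in cells of 1000 to 3000 UMIs, 0.420 scaled by the median ratio over genes, 0.477 after thinning and 0.409 without the 1% of cells richest in the gene. The Cxcl2 ratio under the same settings was 0.789, 0.835, 0.722, 0.805 and 0.769, and it was 0.786 with a stricter gate, 0.787 with a looser gate and 0.773 scaled within classes of transcript length. Cxcl3 had 0.692, 0.748, 0.632, 0.712 and 0.674 under those first 5 settings, with 0.675 without the highest Scrublet scores, 0.699 with the stricter gate and 0.629 scaled by length. Cxcr2 was 1.18 in the depth window, 0.956 scaled by the median and 0.952 scaled by length. Cxcr4 was 1.31 scaled by the median.

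In macrophage-like cells Pf4 was 0.935 with the looser gate, 0.931 without S100a8 or S100a9 cells and 0.969 scaled by length. Ppbp there was 0.708 with the looser gate, 0.907 in the depth window, 0.651 scaled by length and 0.770 after thinning. Without thinning, Cxcr2 was found in 29.7% of IL-27 and 32.0% of control neutrophil-like cells, and Cxcr4 in 35.9% and 34.2%. Of the pathway list entries in neutrophil-like cells, 14 were higher and 6 lower at 1.5-fold, and 0 were higher and 3 lower at 2-fold. Over all genes of the class 14.6% were higher and 7.29% lower at 1.5-fold, and no such share was counted at 2-fold. A gene on 2 lists was counted in both. No paired analysis was possible because each group is 1 matrix and no test was made. Leaving out a replicate was not possible for the same reason. The limits are 1 matrix per group, classes rebuilt from markers, shallower cells in the IL-27 matrix (median 1847 UMIs, against 2384.5 in controls) and the few Cxcl12 UMIs.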

Other observations

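In thinned neutrophil-like cells, Cxcl1 was found in 7.76% of IL-27 cells with a Cxcr2 UMI and 19.0% of those without one. In control cells the shares were 17.1% and 28.4%. By Cxcr4, Cxcl1 was found in 11.5% of IL-27 cells with a UMI and 18.3% of those without, and in 20.7% and 27.4% of control cells. In both matrices Cxcl1 was thus seen less often in cells with either receptor's transcript, within cells of 1 matrix that are not replicates.

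Among the shallow unassigned cells, Cxcl2 stood at 7590.4 CPM in the IL-27 matrix and 11075 CPM in controls. Unassigned control cells also held 15 Cxcl12 UMIs in 2 cells, and unassigned IL-27 cells held 0.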
